A study of Rattus norvegicus with 9 samples.

Results

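The genes described here are 7 members of the cell's zinc-handling machinery: the metallothionein Mt2A, the zinc-sensing transcription factor Mtf1, the zinc exporter Slc30a1 and the zinc importers Slc39a6, Slc39a8, Slc39a10 and Slc39a14. They were taken by gene symbol from a table of 34267 rat genes, in which each of the 7 symbols had a single row. The members were chosen from earlier results of these same libraries, including the contrasts given below, so their levels and differences are a description with no test. In 9 libraries, polyadenylated RNA was sequenced from cartilage progenitor cells of wild-type (WT) rat condylar cartilage, grown as primary cultures. The control group, P3, held 3 libraries of cells at passage 3. P9 held 3 libraries of the cells carried in culture to passage 9, the series' model of replicative senescence. FFSS held 3 libraries of passage 3 cells under flow fluid shear stress, a force from liquid moved across the cells, used as a model of degeneration. The series asks what mechanism the 2 models share. The labels do not give the age or number of animals, the strength or duration of the flow, or whether libraries of a group came from separate cultures, so every p below measures only the spread between these libraries, which may be technical.

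Zinc that enters the cytosol is bound by metallothioneins, small cysteine-rich proteins that also hold copper and cadmium. Proteins of the Slc39a (ZIP) family carry zinc into the cytosol from outside the cell or out of organelles, and proteins of the Slc30a (ZnT) family carry it the other way. Mtf1 senses free zinc and binds metal response elements, short DNA motifs upstream of metallothionein genes and of Slc30a1. Metallothionein genes are also known to respond to glucocorticoids, interleukin-6 and oxidative stress. In mouse cartilage, import of zinc through Slc39a8 with activation of Mtf1 has been described as a route to matrix-degrading enzymes in osteoarthritis.

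Levels are given as FPKM, which scale fragments to the length of the gene and the size of the library, with mean ± SD over n = 3 libraries per group, and always in the order of replicates 1, 2 and 3. Differences are log2 differences of FPKM + 1 with their standard error (SE), a scale that understates changes of genes near 1 FPKM. A gene was tested if it reached at least 1 FPKM in at least 3 libraries (13059 genes). It was called at a Benjamini-Hochberg adjusted p under 0.05 from limma over all of them. The libraries held 13264930 to 15323790 fragments. FFSS replicate 1 stood apart from its group: across genes its Pearson r was 0.915 and 0.947 with FFSS replicates 2 and 3, and 0.936 to 0.945 with the P3 libraries. The mitochondrial share of fragments was 2.12 to 2.32% in P3 libraries, 2.31 to 2.56% for P9 and 2.96 to 3.75% for FFSS. Of the cartilage and progenitor markers, 9 of 11 passed the filter, with a summed level of 2123 to 2138 FPKM in P3, 1806 to 2153 for P9 and 2119 to 2227 for FFSS. Single markers differed between groups by more than these sums show. Acan, the aggrecan core protein, had 128 ± 6.56 FPKM in P3, 561 ± 56.4 in P9 and 40.2 ± 9.80 in FFSS, and Col11a1 had 857 ± 55.6, 234 ± 63.7 and 478 ± 63.8 FPKM (SD, n = 3), all called against P3. In the same order of groups, the progenitor surface markers Thy1 and Eng had means of 890, 1009 and 1348 FPKM and of 59.0, 29.1 and 97.6 FPKM. Col2a1 and Matn3, which mark mature cartilage, stayed below the filter.

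Against P3, 5.39% of tested genes were called higher and 4.44% lower in P9 (704 and 580 genes), and 11.4% higher and 10.4% lower in FFSS (1483 and 1362). Between the models, 16.1% were called higher and 15.3% lower in P9 than in FFSS (2103 and 1997). Shares of all tested genes set beside counts below come from the fit with all libraries, also where a count comes from another fit. These backgrounds moved with single libraries. Without FFSS replicate 1, the FFSS calls numbered 2588 higher and 2543 lower, and the P9 calls 1225 and 1005. The FFSS calls numbered 657 and 525 without P3 replicate 1, 730 and 577 without P3 replicate 2, 792 and 681 without P3 replicate 3, and 789 and 707 without FFSS replicate 3. For P9 they numbered 359 and 260 without P3 replicate 1, 354 and 272 without P3 replicate 3, and 393 and 303 without P9 replicate 2. The lower calls in P9 numbered 355 without P3 replicate 2 and 381 without P9 replicate 1. Without FFSS replicate 3, the P9 against FFSS calls numbered 1395 higher and 1272 lower.

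Mt2A (ENSRNOG00000043098) encodes a metallothionein. It lies on chromosome 19 from 11307967 to 11308740, minus strand, in the rat build Rnor_6.0. RefSeq promoters of the build GRCr8 were searched in the 250 bases before the start for the core of the metal response element, TGCACNC or TGCGCNC, on both strands with no overlapping matches. An entry was found for 6 of the 7 members. The promoters of Mt2A and Slc30a1 are shown because both are textbook targets of Mtf1 and their levels under shear, given below, differed, with matches in capitals. In capitals, matches on the minus strand of the window read as the reverse complement.
Mt2A: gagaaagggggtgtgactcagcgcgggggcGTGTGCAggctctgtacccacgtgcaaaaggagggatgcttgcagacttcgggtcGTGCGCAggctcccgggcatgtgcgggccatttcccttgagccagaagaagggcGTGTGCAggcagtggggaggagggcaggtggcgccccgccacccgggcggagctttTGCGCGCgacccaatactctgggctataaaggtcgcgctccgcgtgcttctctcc
Slc30a1: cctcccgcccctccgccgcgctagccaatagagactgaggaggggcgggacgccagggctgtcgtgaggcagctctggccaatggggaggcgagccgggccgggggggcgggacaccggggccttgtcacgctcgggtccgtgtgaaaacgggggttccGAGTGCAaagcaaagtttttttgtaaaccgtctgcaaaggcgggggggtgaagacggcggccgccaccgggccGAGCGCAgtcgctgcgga
The Mt2A window (GRCr8 chr19:10838709-10838958, minus strand) held 4 matches, beginning 220, 165, 111 and 55 bases upstream of the start. Of 33469 rat promoters of this length, 0.266% held at least 4. The Slc30a1 window (GRCr8 chr13:106021769-106022018, plus strand) held 2, at 91 and 18 bases upstream, as did the window of Mtf1, and 4.90% of promoters held at least 2. Those of Slc39a6, Slc39a8 and Slc39a10 held 0, while 20.6% of promoters held at least 1. The window of Mt1, a metallothionein that is not a member, held 6. A match describes letters in a window and not a bound site, and the part of matches in the levels was not tested.

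Mt2A stood at 92.1, 73.9 and 103 FPKM in P3, at 21.9, 24.9 and 22.4 FPKM in P9, and at 2277, 3017 and 2114 FPKM in FFSS. All 3 groups were apart, with every P9 library below and every FFSS library above the range of P3. The means were 89.7 ± 14.8 FPKM in P3, 23.0 ± 1.62 in P9 and 2470 ± 481 in FFSS (SD, n = 3). The ratio of means to P3 was 27.5 for FFSS, and the P3 mean was 3.89 times that of P9. On the log2 scale P9 differed from P3 by -1.90 (SE 0.17) and FFSS from P3 by 4.76 (SE 0.17). Ranked by mean FPKM among all genes of the table, Mt2A stood at 817 in P3, at 3177 in P9 and at 15 in FFSS. Its FFSS difference was the 10th highest of the 13059 tested genes and its P9 difference the 79th lowest. The level rested on 389 to 582 fragments in P3 libraries, 114 to 145 for P9 and 12002 to 16791 for FFSS. Without FFSS replicate 1, the FFSS difference was 4.81.

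**Figure D1:**
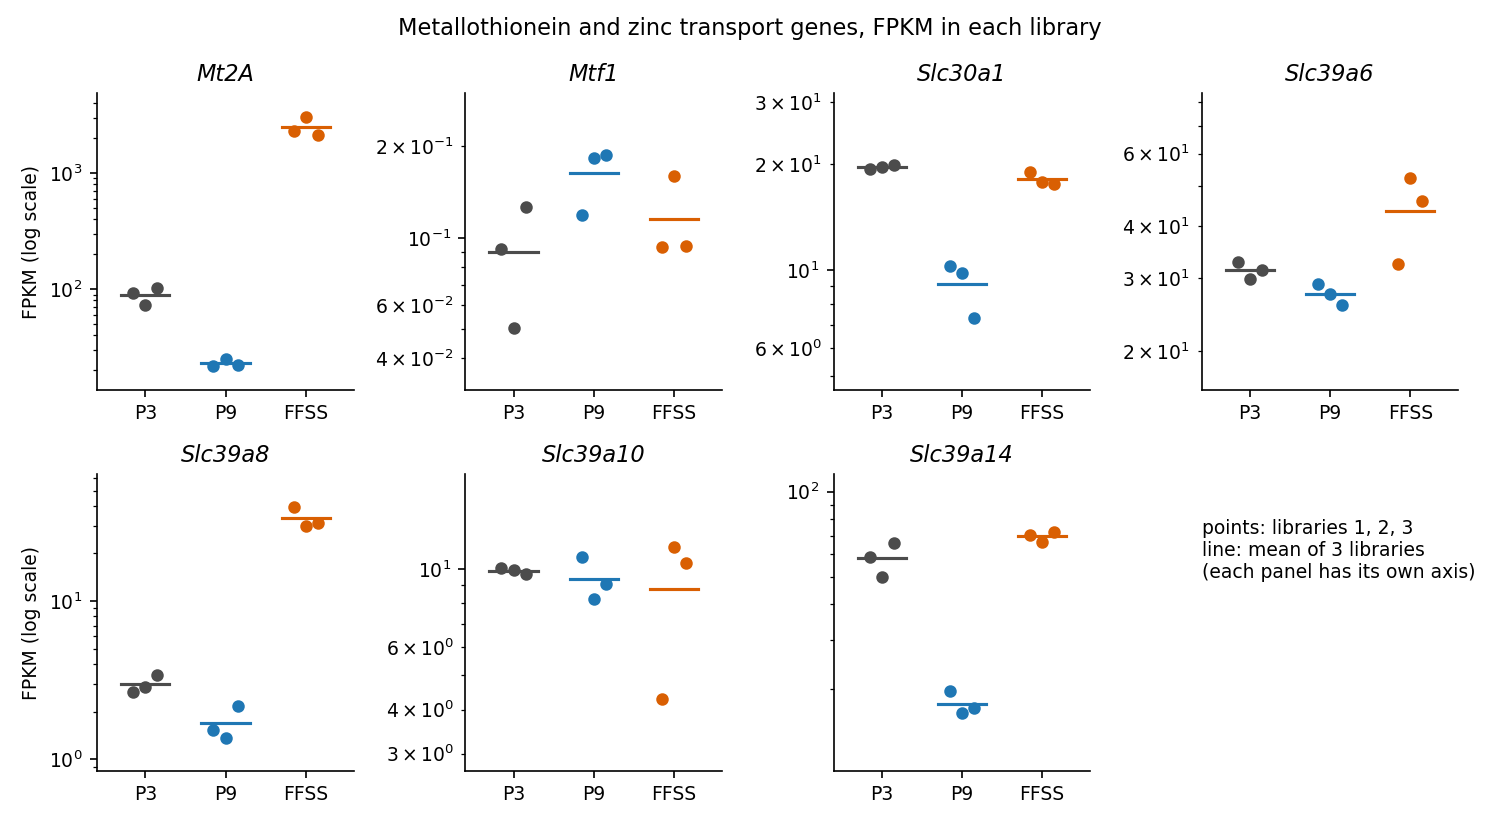
FPKM of the 7 zinc-handling genes in each library, on a log axis of its own in each panel. Points are libraries 1, 2 and 3 of P3 (grey), P9 (blue) and FFSS (orange) and lines are group means; Mt2A and Slc39a8 have their FFSS points far above both other groups, while Slc30a1 and Slc39a14 have their P9 points below both.

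Mtf1, the transcription factor (chromosome 5, 142332607 to 142376370, plus strand, Rnor_6.0), was close to the detection limit. It stood at 0.0921, 0.0505 and 0.126 FPKM in P3, at 0.119, 0.183 and 0.187 FPKM in P9, and at 0.0932, 0.159 and 0.0937 FPKM in FFSS. These values rest on 3 to 13 fragments per library, the groups overlapped, and the gene did not pass the filter. Its level in the 3 groups was not distinguishable at this depth, and FPKM say nothing of how active the protein was.

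Slc30a1 (chromosome 13, 110677810 to 110681683, plus strand) encodes the exporter that carries zinc out across the plasma membrane. It stood at 19.3, 19.6 and 19.9 FPKM in P3, at 10.3, 9.80 and 7.33 FPKM in P9, and at 19.0, 17.9 and 17.6 FPKM in FFSS. The P9 libraries lay below all others, and the FFSS libraries lay just below those of P3 without overlap. The P9 mean was 9.13 ± 1.58 FPKM against 19.6 ± 0.263 for P3 (SD, n = 3), with a log2 difference of -1.04 (SE 0.13). FFSS averaged 18.1 ± 0.738 FPKM, a log2 difference of -0.11 with a 95% interval of -0.40 to 0.18. Under shear, where Mt2A had a ratio to P3 of 27.5, that of Slc30a1 was 0.925.

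Slc39a8 (chromosome 2, 241029693 to 241092582, plus strand) encodes a plasma membrane importer that carries zinc, manganese, iron and cadmium. It stood at 2.67, 2.86 and 3.41 FPKM in P3, at 1.54, 1.36 and 2.18 FPKM in P9, and at 39.5, 30.0 and 31.3 FPKM in FFSS. The 3 groups did not overlap, and they took the same order as for Mt2A. The FFSS mean of 33.6 ± 5.12 FPKM was 11.3 times the P3 mean of 2.98 ± 0.381 (SD, n = 3). The log2 difference was 3.11 (SE 0.16), the 36th highest of all tested genes, and 3.00 without FFSS replicate 1. P9 averaged 1.69 ± 0.431 FPKM, a log2 difference of -0.57 (SE 0.16).

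Slc39a14 (chromosome 15, 51982982 to 52029816, minus strand) encodes the importer closest in sequence to Slc39a8, with a similar range of metals, and is known to respond to interleukin-6 in liver. It stood at 58.6, 49.9 and 65.8 FPKM in P3, at 19.8, 16.5 and 17.2 FPKM in P9, and at 70.3, 66.3 and 71.9 FPKM in FFSS. Every P9 library lay below P3, and the FFSS libraries began just above the highest P3 value. P9 averaged 17.8 ± 1.71 FPKM against 58.1 ± 7.92 in P3 (SD, n = 3), a log2 difference of -1.65 (SE 0.12), the 117th lowest of all tested genes. The FFSS mean of 69.5 ± 2.86 FPKM was 1.20 times that of P3, with a log2 difference of 0.26 and a 95% interval of -0.02 to 0.55.

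Slc39a6 and Slc39a10 encode related importers that are known to pair with each other in the membrane. Slc39a6 (chromosome 18, 16522982 to 16543992, minus strand) stood at 32.8, 29.9 and 31.3 FPKM in P3, at 29.1, 27.5 and 25.8 FPKM in P9, and at 32.4, 52.4 and 46.1 FPKM in FFSS. FFSS replicate 1 lay within the range of P3, and the other FFSS libraries lay above it. The FFSS mean was 43.6 ± 10.2 FPKM against 31.3 ± 1.46 in P3 (SD, n = 3), a log2 difference of 0.44 (SE 0.16), or 0.63 without FFSS replicate 1. Slc39a10 (chromosome 9, 60021534 to 60070552, plus strand) stood at 10.1, 9.91 and 9.70 FPKM in P3, at 10.8, 8.23 and 9.09 FPKM in P9, and at 4.30, 11.6 and 10.4 FPKM in FFSS. Its groups overlapped, and its lowest value was in FFSS replicate 1. The log2 difference of FFSS was -0.26 (SE 0.29) with that library and 0.14 without it.

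**Figure D2:**
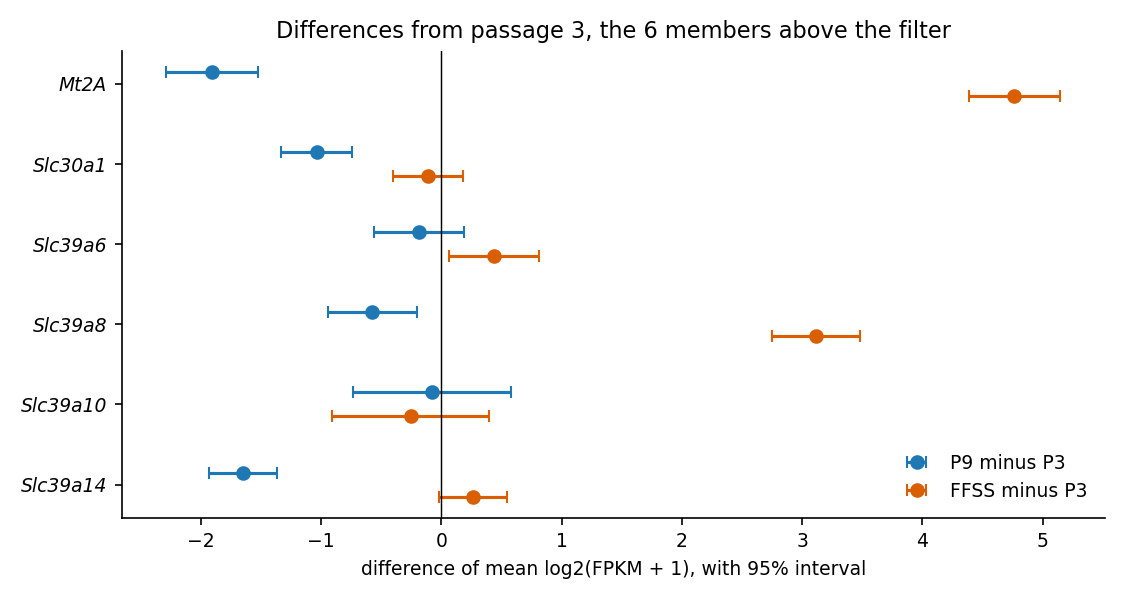
Differences of mean log2(FPKM + 1) from P3 for the 6 genes that passed the filter, with 95% intervals; blue is P9 minus P3 and orange FFSS minus P3. Mt2A and Slc39a8 lie on opposite sides of 0 in the models, at -1.90 and 4.76 for Mt2A and at -0.57 and 3.11 for Slc39a8.

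By level per length, the order in P3 was Mt2A, Slc39a14, Slc39a6, Slc30a1, Slc39a10, Slc39a8 and Mtf1, with no overlap between neighbours. In P9 Slc39a6 was highest at 27.5 ± 1.64 FPKM, above Mt2A and Slc39a14, and Slc39a10 and Slc30a1 overlapped. In FFSS Mt2A was again first, and Slc39a8, next to last in P3, overlapped with Slc39a6, below Slc39a14 and above Slc30a1.

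Of the 6 members that passed the filter, 3 were lower in P9 than in P3 past the threshold used for all genes (Mt2A, Slc39a14 and Slc30a1) and 0 were higher, where 4.44% and 5.39% of all tested genes were. In FFSS 2 were higher (Mt2A and Slc39a8), against 11.4% of tested genes, and 0 were lower. Between the models 5 were lower in P9 than in FFSS, all but Slc39a10, against 15.3%. The members were picked on these contrasts, and nothing is read from these counts. Without FFSS replicate 1 or without P9 replicate 3, Slc39a8 joined the lower group in P9. It also did so with a pseudocount of 0.1 and with only P3 and P9 in the fit. Slc39a6 joined the higher group in FFSS without FFSS replicate 1. Slc39a6 left the lower group of P9 against FFSS without P9 replicate 2 or 3 or FFSS replicate 2 or 3, and with only P9 and FFSS in the fit. P9 against FFSS gave a log2 difference of -6.67 for Mt2A, -3.69 for Slc39a8, -1.91 for Slc39a14, -0.93 for Slc30a1 and -0.62 for Slc39a6. Both models are set against the same 3 control libraries.

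The other metallothionein rows that were tested, Mt1 and Mt1m, had their highest values in FFSS as well. Mt1 rose in FFSS, from 16.0, 14.9 and 9.93 FPKM in P3 to 214, 119 and 133 FPKM, a log2 difference of 3.40 (SE 0.24, limma adjusted p = 0.0001). In P9 it stood at 8.10, 8.26 and 9.38 FPKM, a log2 difference of -0.58 that was not called (limma adjusted p = 0.18) but was called without FFSS replicate 1. Mt1m rose in FFSS too, from 0.884, 0.194 and 0.181 FPKM to 18.1, 11.9 and 9.36 FPKM (limma adjusted p = 0.00025). Its P3 and P9 values rest on 0 to 5 fragments per library. Mt3, the form best known from brain, stayed at or below 1.33 FPKM in all libraries and was not tested, and Mt4, the form of stratified epithelium, was listed at 0 in every library.

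These rows need care. The table places Mt1 on chromosome 17 (78793336 to 78793724) and Mt1m on chromosome 20 (3677474 to 3677847). RefSeq for GRCr8 places Mt1 beside Mt2A on chromosome 19, lists Mt1m as a pseudogene and lists a pseudogene, Mt1-ps3, on chromosome 17. The table's own neighbour of Mt2A is a gene with no name beyond AC128848.1 (ENSRNOG00000025764, chromosome 19, 11302125 to 11302938, minus strand), added here after its values were seen. In GRCr8 the promoter window of Mt1 is at 10832976 to 10833225 and that of Mt2A at 10838709 to 10838958, both on the minus strand. AC128848.1 thus lies on the same strand and the same side of Mt2A as the Mt1 of RefSeq, and may be that gene. AC128848.1 stood at 49.0, 43.4 and 72.6 FPKM in P3, at 25.3, 35.2 and 24.0 FPKM in P9, and at 907, 615 and 576 FPKM in FFSS. The FFSS log2 difference was 3.65 (SE 0.24, limma adjusted p = 8.5e-05). The P9 difference of -0.93 (limma adjusted p = 0.046) was not called without any single P3 or P9 library or without FFSS replicate 3, nor with voom, library totals, no filter or the replicate block (adjusted p = 0.083, 0.065, 0.085 and 0.0998). Metallothionein copies can be alike in sequence, and how alike these rows are was not measured here. How reads that fit several copies were counted is not given in the sources used here, so the split among these rows is uncertain. The 4 rows summed to 159 ± 26.8 FPKM in P3, 59.9 ± 7.49 in P9 and 3338 ± 470 in FFSS (SD, n = 3), and Mt2A made up 56.5%, 38.6% and 73.8% of that sum.

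**Figure D3:**
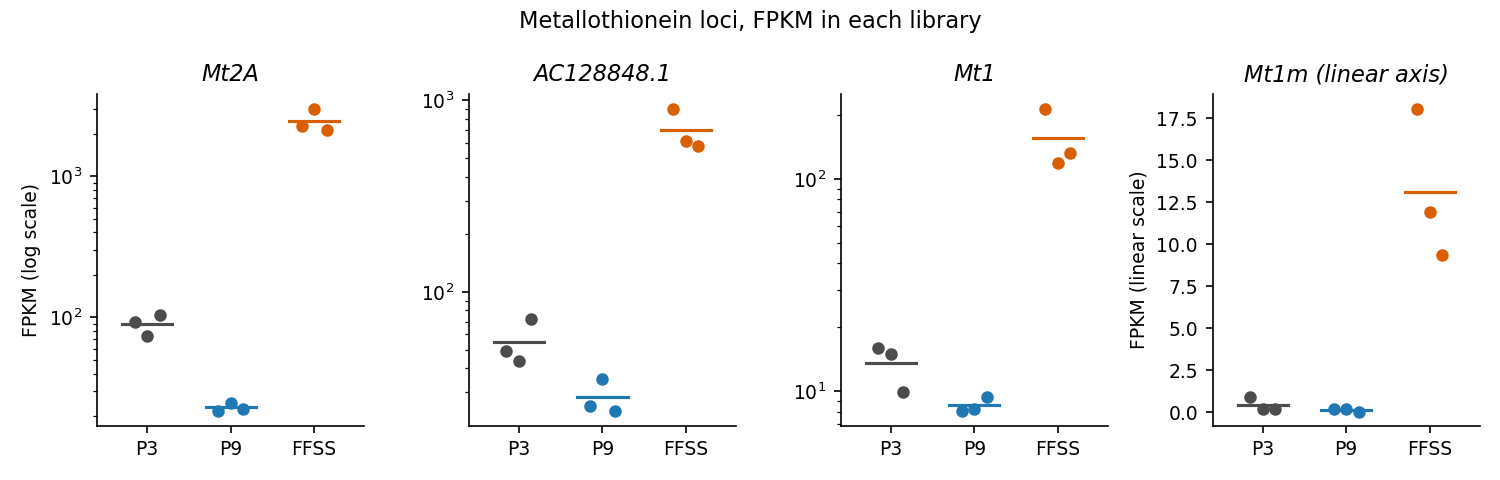
FPKM of 4 metallothionein rows in each library of P3, P9 and FFSS, on log axes except for Mt1m, which has a linear axis because a P9 library is at 0. Points are libraries and lines are group means; in all 4 panels every FFSS library lies above every P3 and P9 library.

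The rest of the 2 transporter families was described from lists taken whole by symbol. With the other metallothioneins these hold 27 symbols, of which 24 were in the table and 14 were tested. In P9, 0 of the 14 were called in either direction by limma, against 5.39% higher and 4.44% lower of all tested genes. Their median log2 difference was -0.25, against 0.00 for all genes, with 6 lower and 0 higher at an unadjusted p under 0.05, and limma's voom test on recovered fragments called 1 lower. Without FFSS replicate 1, 3 were called lower in P9 (Slc30a7, Slc39a9 and Mt1), and without FFSS replicate 2, 1 was (Slc39a9). In FFSS 3 of the 14 rose (Mt1, Mt1m and Slc39a1) and 0 fell, against 11.4% and 10.4% of all tested genes, with a median of 0.10. The number that rose was 5 without FFSS replicate 1 or without P9 replicate 1, and Slc30a7 was called lower without FFSS replicate 1. Between the models, 4 were lower in P9 than in FFSS (Mt1, Mt1m, Slc39a1 and Slc39a13) and 0 higher, against 15.3% and 16.1% of all tested genes. Without FFSS replicate 1, 8 were lower. The shares in this paragraph are those of the fit with all libraries. Without FFSS replicate 1, calls over all tested genes also grew in both models against P3. The Mt1 and Mt1m rows counted here lie on chromosomes where RefSeq lists pseudogenes, and AC128848.1 is not among the 14. Of the listed transporters alone, 1 of 7 tested Slc39a genes and 0 of 5 Slc30a genes rose in FFSS, against 11.4%. In P9, 2 of the 7 and 0 of the 5 were lower than in FFSS, against 15.3%.

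Slc39a1, a plasma membrane importer found in most tissues, stood at 78.9, 80.0 and 76.6 FPKM in P3 and at 114, 143 and 129 FPKM in FFSS. It rose by 0.70 on the log2 scale (SE 0.12, limma adjusted p = 0.0053). In P9 it stood at 82.3, 99.0 and 90.5 FPKM (limma adjusted p = 0.35). Slc39a13, an importer of the secretory pathway needed for connective tissue and bone development, stood at 91.5, 94.9 and 88.6 FPKM in P3, at 50.5, 70.1 and 81.7 FPKM in P9, and at 114, 157 and 143 FPKM in FFSS. Its FFSS difference of 0.57 just missed the threshold (limma adjusted p = 0.054), passing it without FFSS replicate 1 or P9 replicate 1 or 3, while P9 was lower than FFSS by a log2 difference of -1.04 (limma adjusted p = 0.0035). Slc39a7, which releases zinc from the endoplasmic reticulum, was the most abundant importer in P3 at 142 ± 4.61 FPKM, with 112 ± 17.6 in P9 and 131 ± 11.1 in FFSS (SD, n = 3), and was not called in any comparison. Slc39a9, an importer of the Golgi, had 22.9 ± 0.281 FPKM in P3 and 15.1 ± 1.64 in P9 (limma adjusted p = 0.051). Slc39a3 stood between 5.40 and 12.8 FPKM in all libraries.

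**Figure D4:**
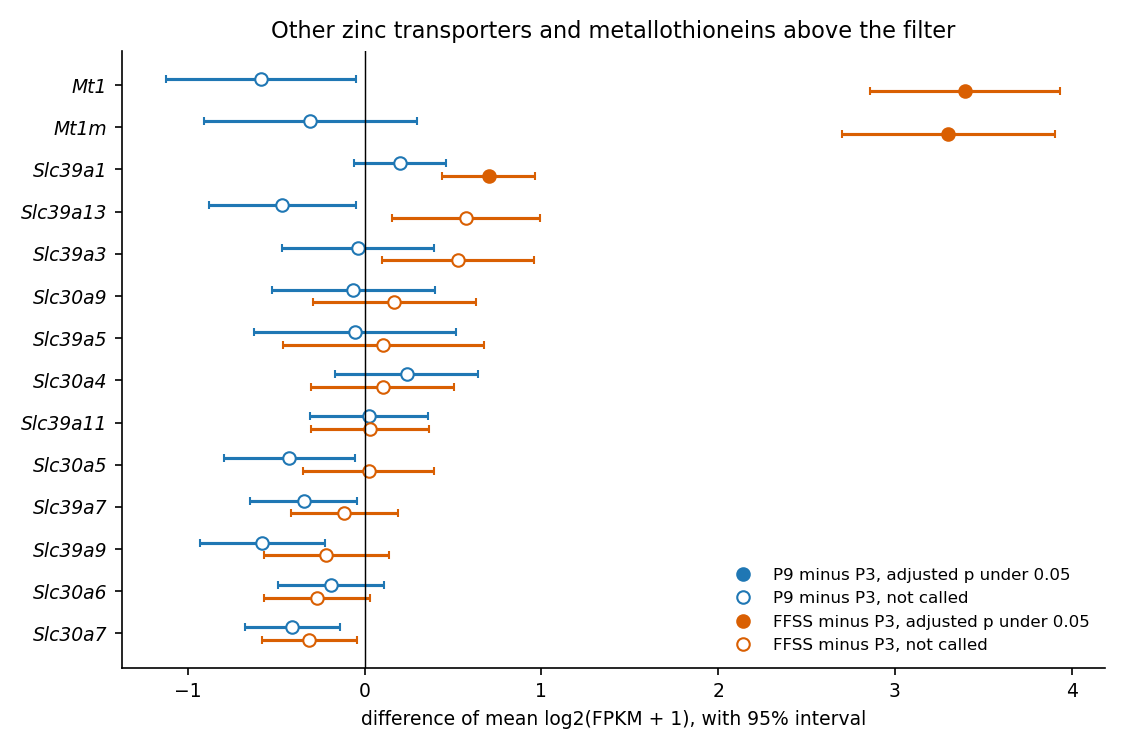
Differences of mean log2(FPKM + 1) from P3 for the 14 other zinc transporter and metallothionein genes that passed the filter, with 95% intervals; blue is P9 minus P3, orange FFSS minus P3, and filled points have a limma adjusted p under 0.05. Only Mt1, Mt1m and Slc39a1 are filled, all in FFSS. The rows named Mt1 and Mt1m lie on chromosomes where RefSeq for GRCr8 lists metallothionein pseudogenes.

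The zinc exporters other than Slc30a1 are mostly proteins of the Golgi and of vesicles. Of 10 symbols, which include Tmem163, 5 were tested (Slc30a4, Slc30a5, Slc30a6, Slc30a7 and Slc30a9), and 0 were called by limma or by voom in any of the 3 comparisons. At an unadjusted p under 0.05, 2 were lower in P9, and 1 was lower in each of the other comparisons. If FFSS replicate 1 was left out, Slc30a7 was called lower in both models, Slc30a9 higher in FFSS, and Slc30a5 and Slc30a9 lower in P9 than in FFSS. Slc30a7, which loads zinc into the Golgi, had 30.4 ± 2.65 FPKM in P3, 22.6 ± 2.35 in P9 and 24.3 ± 1.89 in FFSS (SD, n = 3). Its P9 log2 difference of -0.41 missed the threshold (limma adjusted p = 0.065). The others tested lay between 8.41 and 42.3 FPKM. Slc30a8, the exporter of insulin granules, and Slc39a12 were listed at 0 in every library.

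Summed over the 14 Slc39a genes, importer transcripts came to 456 ± 4.44 FPKM in P3, 361 ± 37.4 in P9 and 597 ± 37.9 in FFSS (SD, n = 3), without overlap between groups. This sum includes the members Slc39a6, Slc39a8, Slc39a10 and Slc39a14, which were chosen on these contrasts, so it is a description with no test. Slc39a8 was 0.654% of that sum in P3, 0.469% in P9 and 5.68% in FFSS. Slc39a14 was 12.7% in P3, 5.01% in P9 and 11.7% in FFSS. The 10 Slc30a genes, with the member Slc30a1 included, summed to 135 ± 2.29 FPKM in P3, 111 ± 12.6 in P9 and 133 ± 18.5 in FFSS.

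**Figure D5:**
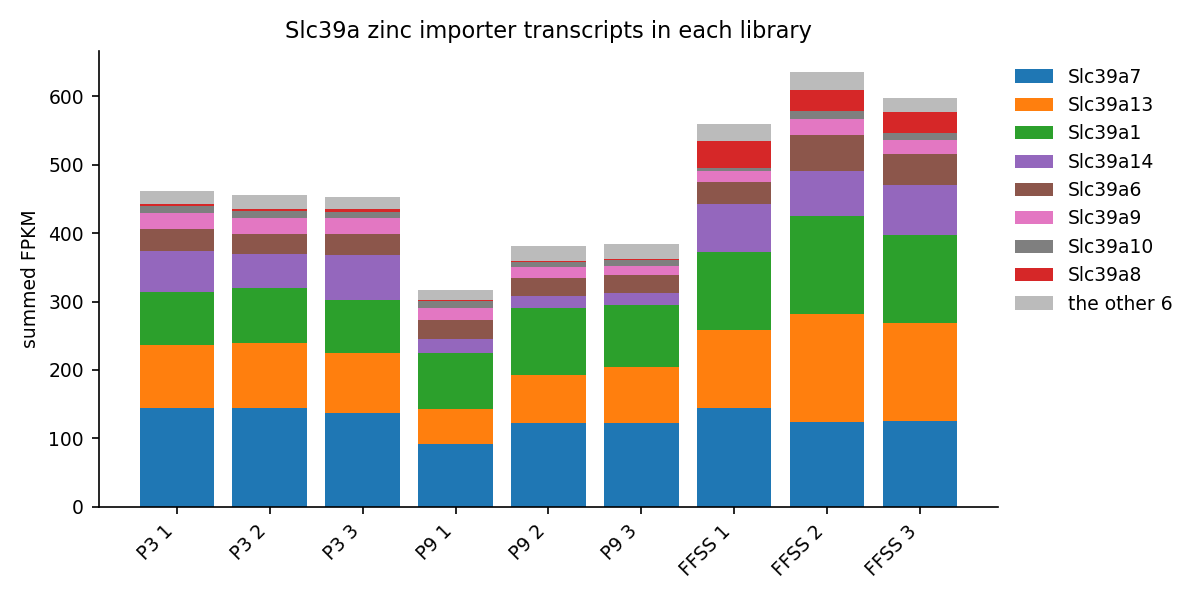
Summed FPKM of the 14 Slc39a importer genes, members included, in each library, as stacked bars from 0. Of these, 8 genes have colours of their own and the other 6 are in light grey. The P9 bars are the lowest and the FFSS bars the highest, and the red Slc39a8 segment, 5.68% of the sum on average, is thickest in FFSS.

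A list of 5 matrix-degrading enzymes described downstream of Slc39a8 and Mtf1 in chondrocytes had 4 tested genes. In FFSS 2 rose and 0 fell, where 11.4% and 10.4% of all tested genes did, with a median log2 difference of 1.48 against -0.01 for all genes. Mmp3, which cleaves proteoglycans and activates collagenases, rose from 10.4, 4.97 and 18.6 FPKM in P3 to 56.4, 33.0 and 42.3 FPKM (limma adjusted p = 0.0086). Mmp13, the main collagenase of type II collagen, rose from 0.254, 0.167 and 0.755 FPKM to 3.65, 17.8 and 14.7 FPKM (limma adjusted p = 0.0038). Adamts5, an aggrecanase, stood at 10.9, 6.77 and 12.8 FPKM in P3 and at 35.9, 10.2 and 22.1 FPKM in FFSS, overlapping groups that were not called (limma adjusted p = 0.10) but were called without FFSS replicate 2. Mmp9, a gelatinase, hardly differed, at 3.80, 2.03 and 5.16 FPKM in P3 and 6.86, 1.59 and 3.27 FPKM in FFSS (limma adjusted p = 0.99). In P9 Mmp3 fell to 0.816, 0.614 and 1.01 FPKM (limma adjusted p = 0.0033), the 1 call of the list there, where 4.44% of all tested genes fell. Without FFSS replicate 1, Mmp9 was called lower in P9 as well, making 2. With a filter of 5 FPKM only 1 gene of the list was called in FFSS, since Mmp13 reached that level in too few libraries to be tested.

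A list of 24 genes known to induce metallothionein or to accompany its acute response had 23 tested genes. In FFSS 7 rose and 1 fell, where 11.4% and 10.4% of all tested genes did, with a median log2 difference of 0.43. Socs3, the feedback inhibitor of interleukin-6 signalling, rose from 4.33 ± 0.168 to 54.4 ± 14.7 FPKM (SD, n = 3, limma adjusted p = 4.6e-05). Il6, the cytokine itself, rose from 1.40 ± 0.536 to 14.7 ± 3.62 FPKM (limma adjusted p = 0.00055). Hif1a, the hypoxia factor, and Sgk1, a kinase induced by glucocorticoids and stress, rose by log2 differences of 1.13 and 2.19 (limma adjusted p = 0.0017 and 0.0033). Fkbp5, a glucocorticoid target, was the gene that fell, by 1.15 on the log2 scale (limma adjusted p = 0.034). Its call and that of Lcn2 among the 7 were lost without any single P3 library, without P9 replicate 2 or 3 and without FFSS replicate 3, and that of Fkbp5 also without FFSS replicate 2. Both were also lost with no filter and with only P3 and FFSS in the fit, and that of Lcn2 with voom. In P9 3 of the 23 fell and 0 rose, where 4.44% and 5.39% of all tested genes did, with a median of -0.31, or 6 and 2 without FFSS replicate 1, and 5 and 1 leaving out FFSS replicate 2 instead. Hmox1, the heme-degrading enzyme of oxidative stress, fell from 468 ± 146 to 80.2 ± 49.2 FPKM (limma adjusted p = 0.0054). Slc7a11, the cystine importer, fell from 2.81 ± 0.167 to 1.01 ± 0.0595 FPKM (limma adjusted p = 0.0031). The call of Cebpd, at an adjusted p of 0.034 from limma, was lost without any single P3 library, P9 replicate 1 or 2 or FFSS replicate 3, and with library totals, no filter or the replicate block (adjusted p = 0.051, 0.061 and 0.067). Between the models, 13 of the 23 were lower in P9 and 0 higher, where 15.3% and 16.1% of all tested genes were, or 2 higher without FFSS replicate 1. In FFSS Hmox1 had 592 ± 214 FPKM and Slc7a11 2.57 ± 0.243 FPKM (SD, n = 3). Both were not called against P3 (limma adjusted p = 0.63 for each), and most of the 23 were not called in FFSS.

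Slc39a8 and Slc39a14 also carry iron and manganese, and a list of 26 iron, manganese and copper genes had 16 tested. In P9 0 of the 16 were called by limma or voom, and 0 had an unadjusted p under 0.05, but 1 was called higher without P9 replicate 1. In FFSS 3 rose (Atox1, Slc31a2 and Slc25a28) and 1 fell, where 11.4% and 10.4% of all tested genes did, with a median of -0.02. The gene that fell was Tfrc, the transferrin receptor for iron uptake, at 22.9, 25.8 and 23.8 FPKM in P3 and 18.2, 6.88 and 9.24 FPKM in FFSS (limma adjusted p = 0.029). Calls here were often lost when a single library was left out. That of Atox1, a copper chaperone, was lost without P3 replicate 1 or 2, and those of the other 3 were lost without any single P3 library. Slc31a2, Slc25a28 and Tfrc also lost theirs without FFSS replicate 3, Slc25a28 and Tfrc without FFSS replicate 2, and Slc25a28 without P9 replicate 2. With no filter Tfrc and Slc25a28 lost theirs, as did Tfrc and Slc31a2 with only P3 and FFSS in the fit and Slc25a28 with the replicate block. Without P3 replicates 1, 2 and 3 in turn, the log2 difference of Tfrc was -1.16, -1.07 and -1.13, against -1.12 with all libraries. That of Slc31a2 was 1.05, 1.05 and 0.99, against 1.03, and that of Slc25a28 was 0.84, 0.73 and 0.70, against 0.76. Without FFSS replicate 2, that of Tfrc was -0.84. Leaving out FFSS replicate 1 gave 3 lower calls. Fth1, the ferritin heavy chain, and the iron exporter Slc40a1 were listed at 0 in every library. Between the models, 1 gene was higher and 2 were lower in P9, where 16.1% and 15.3% of all tested genes were. Without P9 replicate 1 these were 0 and 1, the lower calls were 1 without P9 replicate 2, and the higher calls were 2 without FFSS replicate 1 and 0 when FFSS replicate 3 was left out.

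The genes with the profile most like each member over the 9 libraries were found by the root-mean-square distance of log2(FPKM + 1), centred per gene, among 6358 candidates. These distances describe the libraries and carry no test. For Mt2A, whose own spread on this measure was 2.81, they were the chemokines Cxcl1 (0.503) and Ccl2 (0.591) and the secreted lipase inhibitor Angptl4 (0.612). Cxcl1 had mean levels of 28.6 FPKM in P3, 5.34 in P9 and 457 in FFSS. For Slc39a8, with a spread of 1.63, they were Zc3h12a, which encodes an RNA-degrading regulator of inflammation (0.176), Angptl7 (0.189) and Mt1 (0.294). For Slc39a14, with a spread of 0.852, they were Pappa1 (0.158), Lox, the collagen crosslinking enzyme (0.222), and Golm1 (0.227). Lox had 1011 FPKM in P3, 353 in P9 and 1039 in FFSS. For Slc30a1, with a spread of 0.479, they were Dclk1 (0.132), Azin1 (0.163) and the endoplasmic reticulum chaperone Hspa5 (0.168). Slc39a6 and Slc39a10 varied less, with spreads of 0.313 and 0.350, and their nearest profiles were those of Phc1, Tmem127 and Ip6k1 and of Heatr5a, Rab3gap2 and Sort1.

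Marker levels of some other cell types differed between the groups. In bulk RNA, more cells of a type and more RNA per cell cannot be told apart. Of 7 macrophage and leukocyte markers, 6 were in the table and 1 was tested. They summed to 0.838 to 1.26 FPKM in P3, 0.456 to 1.07 for P9 and 2.37 to 11.3 for FFSS, and their part in the metallothionein and importer levels was not tested. Cd68, the marker tested, rose in FFSS from 0.683 ± 0.174 to 2.29 ± 0.269 FPKM (SD, n = 3, limma adjusted p = 0.0078). The others were below the filter: Lyz2 stood at 0.0562, 5.36 and 2.94 FPKM in FFSS and at most 0.305 in P3, and Csf1r at 0.0840, 3.17 and 2.08 FPKM in FFSS and at most 0.187 in P3. Ptprc stayed at or below 0.0400 FPKM, and Adgre1 was listed at 0 in every FFSS library. FFSS replicate 1 had the lowest macrophage and leukocyte marker sum of its group, 2.37 FPKM. Skeletal muscle markers, mainly Acta1, summed to 2.70 to 16.3 FPKM in P3, 35.6 to 43.2 for P9 and 0.540 to 1.91 for FFSS, and their part in the P9 levels was not tested. Of these 5 markers, 1 passed the filter, Acta1, with means of 7.96, 38.7 and 0.775 FPKM in P3, P9 and FFSS. Des went the other way in P9, with means of 1.29, 0.552 and 0.218 FPKM. Myod1, Ckm and Myog stayed at or below 0.604 FPKM in every library. Of 6 endothelial markers 5 were in the table, summing to at most 0.956 FPKM in any library, with Cdh5 and Emcn listed at 0 throughout. Epithelial and erythroid markers summed to at most 0.828 and 0.290 FPKM, with Krt5, Hbb and Hba-a2 listed at 0 throughout. Since Fth1, which every cell uses, is also listed at 0 in this table, a listed 0 does not show that a gene was not expressed.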

How the data were processed

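Polyadenylated RNA of 9 libraries (3 per group) was measured. Per the submitters' processing notes, the build was Rnor_6.0 and the tools were featureCounts 1.5.0-p3 and HISAT2 2.0.5; settings and strandedness are not given in the sources used here. The deposited values are FPKM for 34267 genes, with a gene length in bases, in the authors' table. FPKM times gene length gave whole multiples of a step for 100% of values (tolerance 0.01 of a step). The step followed median-of-ratios scaling, and it gave the fragments behind each value. At this depth 1 fragment on 1 kilobase was 0.0619 to 0.0733 FPKM, which covers counting error only.

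The fit, limma 3.58.1 (R 4.3.3) on log2(FPKM + 1), was made with a mean for each group, all 9 libraries together and a spread that may depend on expression. The filter was at least 1 FPKM in at least 3 libraries. Tests were two-sided, adjusted by Benjamini-Hochberg over all 13059 tested genes and called under 0.05. The fit was also run on data simulated with the same spread setting for all genes and groups. That run does not show how the calls depend on single libraries. Tables and figures used Python 3.11.15, pandas 2.3.3 and matplotlib 3.10.9.

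The members and lists were chosen with earlier results of these data known. Named were all members, other zinc genes called in any contrast or reaching 10 FPKM in a group, and up to 4 called genes per other list and contrast by adjusted p. Mmp3, Mmp13, Adamts5, Il6, Socs3, Hmox1, Tfrc and Fth1 were always named, as were the 3 nearest profiles of each member among genes of at least 10 FPKM. Lcn2, Fkbp5, Mmp9 and AC128848.1 were named after their values were seen. Alternatives were a pseudocount of 0.1, no filter, a filter of 5 FPKM, library totals, limma's voom on recovered fragments, only the 2 groups compared, the replicate number as a block, a log2 difference of at least 1, and each library left out.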

Additional observations from a re-analysis of the deposited data

How the results depend on the processing

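The 18 log2 differences of the members were recomputed under 16 alternatives. Of these 288 values, 126 were fixed by construction, since the alternative left the values of the groups compared as they were. Of the 162 that could move, 156 lay within 1 SD of replicates of the reported value, and no difference past the threshold changed sign. The 6 that moved further were all of Slc39a8, which gave -0.80 in P9, 3.45 in FFSS and -4.25 between the models with a pseudocount of 0.1, and -0.83, 3.49 and -4.32 with voom. Compared within their 2 groups alone, P9 against P3 gave 1375 genes higher and 1113 lower and P9 against FFSS 1233 and 1258, and the other zinc genes gave 3 lower in P9 and 5 higher in FFSS. With a log2 difference of at least 1, the counts were 364 higher and 283 lower for P9 against P3, 635 and 407 for FFSS against P3, and 799 and 924 for P9 against FFSS, with 3 members lower in the last. A filter of 5 FPKM, library totals and voom each gave 1 other zinc gene lower in P9. Over the 9 fits that left out a library, the counts for P9 against P3 ranged from 354 to 1225 higher and 260 to 1005 lower, for FFSS against P3 from 657 to 2588 and 525 to 2543, and for P9 against FFSS from 1395 to 3053 and 1272 to 2933. The other zinc genes ranged from 0 to 3 lower in P9, 3 to 5 higher and 0 to 1 lower in FFSS, and 4 to 8 lower in P9 than in FFSS. The members ranged from 3 to 4 lower in P9, 2 to 3 higher in FFSS and 4 to 5 lower in P9 than in FFSS. Leaving out an FFSS library left every difference of P9 against P3 as it was. Those calls could therefore change only through the spread, which was estimated from all libraries in the fit. The cause of the other shifts was not tested. Same-numbered libraries had correlations of deviations between -0.041 and 0.033, so no shared deviation was seen. With 3 libraries per group, this cannot show whether same-numbered libraries came from the same culture or animal. With the replicate number as a block, the calls were 550 higher and 432 lower, 1204 and 1061, and 1842 and 1787. The members then gave 3 lower, 2 higher and 5 lower as in the fit without the block, and the other zinc genes 0 in P9, 4 higher in FFSS and 4 lower between the models. With 3 libraries per group and few fragments for Mtf1 and Mt1m, small differences in these genes were not detectable.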
